A study of Mus musculus with 36 samples.

Results

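Transcripts of plasma complement and coagulation proteins were followed in mouse liver on Agilent SurePrint G3 Mouse GE v2 arrays. The set was given as 43 gene names covering the complement cascade, the clotting cascade and plasma proteins that act beside them. A gene was represented by the probes that carried its name on the array, provided at least 6 of the 36 arrays read the probe as well above background, and where several qualified by the brightest. This gave 42 measured genes of the 22916 in the whole data set. The name C1s matched no probe, because the array names its mouse copies C1s1 and C1s2, which are described separately. Of the 42 genes, 41 were well above background on all 36 arrays and 1, Cfd, on 14. The names were listed with earlier results of these data known.

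The livers came from male mice aged 11 weeks, fed chow (Safe 04) freely, and listed as untreated in the labels. Knockout mice (IRLKO) came from crossing IRlox/lox mice, in which exon 4 of the insulin receptor gene Insr is floxed, with C57BL/6J mice whose tamoxifen-inducible Cre is driven in liver by the transthyretin promoter (TTR-CreTam). Control mice (IRLWT) were the IRhep+/+ animals of that line, and neither their Cre status nor the timing of tamoxifen is given in the labels. Livers were taken at Zeitgeber time (ZT, hours after lights-on) 8 and 12, in the light phase and at its end, and at ZT16 in the dark phase, with 6 arrays in each of the 6 groups of genotype and time. The labels number these as replicates without saying that each is a separate mouse, so p-values measure the spread between these samples.

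Hepatocytes make most of the complement and clotting proteins of plasma, so their transcripts are among the abundant messages of the liver. Complement is started through antibody (classical), sugar-binding lectin or spontaneous C3 (alternative) routes, which meet at C3 and end in a pore assembled from C5b, C6, C7, C8 and C9. Clotting runs through a contact route and a tissue factor route to thrombin, which turns fibrinogen into fibrin, and is held back by the protein C system, while plasmin dissolves the clot.

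Levels are given as log2 processed signal after subtracting each array's own 75th percentile, so that 0 is that percentile, and levels of different probes are not compared with each other. All ratios are differences of these levels, knockout minus control unless said otherwise, fitted with limma over all 36 arrays with wash batch as a term. A gene is called changed where the Benjamini-Hochberg adjusted p over all 22916 genes was under 0.05. The 75th percentile signal of the arrays was 311 to 525 intensity units, 53.7% to 63.1% of spots were well above background, and no spot was saturated. Insr fell in knockouts, with log2 ratios of -1.77, -1.88 and -1.65 at ZT8, ZT12 and ZT16 (limma adjusted p 1.2e-11, 2.1e-12 and 2.9e-11), although whether its probe reads the deleted exon was not determined. Triplets of ratios run in the order ZT8, ZT12 and ZT16 from here on. Of 8 hepatocyte markers 7 were measured, of which 2, 3 and 2 were called lower in knockouts and none higher. The median ratio of the 7 was -0.08, -0.14 and -0.07. The log2 of their summed signal in controls was 11.73 to 12.05 at ZT8, 11.90 to 12.02 at ZT12 and 11.86 to 12.12 at ZT16. In knockouts it was 11.45 to 11.81 at ZT8, 11.53 to 11.85 at ZT12 and 11.66 to 11.86 at ZT16. Such a sum, used for each marker list below, is set mostly by the brightest genes of the list. Alb (albumin) and Ttr (transthyretin) were called lower in knockouts at all 3 times, with ratios of -0.41, -0.35 and -0.39 and of -1.12, -1.02 and -0.97. The array of ZT8 knockout replicate 3 stood apart from the other ZT8 knockouts, scoring 3.03 on the second principal component against 29.1 to 46.0, and calls that change without it are given.

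Lower calls outnumbered higher ones in knockout liver at each of the 3 times. At ZT8, 21 of the 42 genes were called lower and 6 higher, where 18.7% of all genes were called lower and 16.7% higher. At ZT12, 22 were called lower and 6 higher, against 22.7% and 19.6% of all genes. At ZT16, 19 were called lower and 8 higher, against 20.1% and 20.0%. Called lower at all 3 times were 17 of the 42, where 10.6% of all genes were, and called higher at all 3 times were 3, Cfp, Pros1 and F5, where 8.91% were. Cfd, which passed the filter almost wholly through its control arrays, is among the lower calls, and without it 20, 21 and 18 of 41 were called lower at ZT8, ZT12 and ZT16 and 16 at all 3 times. The shares of all genes include many dimmer genes. With only genes well above background on all 36 arrays, 7444 of 17815 were called in either direction at ZT8, and 26 of 41 of the set. At ZT12 these counts were 8820 of 17815 and 27 of 41. The 42 genes had a median log2 ratio of -0.21, -0.22 and -0.20 over the 3 times, beside 0.01, -0.02 and 0.00 for all genes. The ranges of the 6 knockout and the 6 control arrays were disjoint for 16 of the 42 genes at ZT8, for 20 at ZT12 and for 23 at ZT16, against 15.5%, 21.4% and 19.2% of all genes, with Cfd in the ZT12 count alone. In whole liver RNA, fewer cells of a type and less RNA per cell cannot be told apart. Quantile normalization moved the split of higher and lower calls to 13 and 20 at ZT12 and to 13 and 19 at ZT16, and the authors' table gave 12 and 20 and 12 and 17. Without ZT8 knockout replicate 3, the calls at ZT8 were 8 higher and 18 lower. C3 (0.20, adjusted p 0.026), F7 (0.25, 0.021) and Hrg (0.33, 0.021) were then called higher, and the calls of Cfp, Fga, Fgg and F9 were lost. With all arrays, the 10 genes with no genotype call were C1ra, Mbl2, C3, Cfi, Clu, F13b, F7, F10, Plg and Hrg. Besides the 3 genes above, leaving out 1 array gave a call for Cfi at ZT8 (lower, without knockout replicate 1 or 2 or control replicate 5 of that time, adjusted p 0.0339 to 0.0417), for F7 at ZT12 (higher, without control ZT12 replicate 4, adjusted p 0.0433), for F13b at ZT12 and for Mbl2 at ZT16 (lower, without control ZT12 replicate 5, adjusted p 0.0454).

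**Figure D1:**
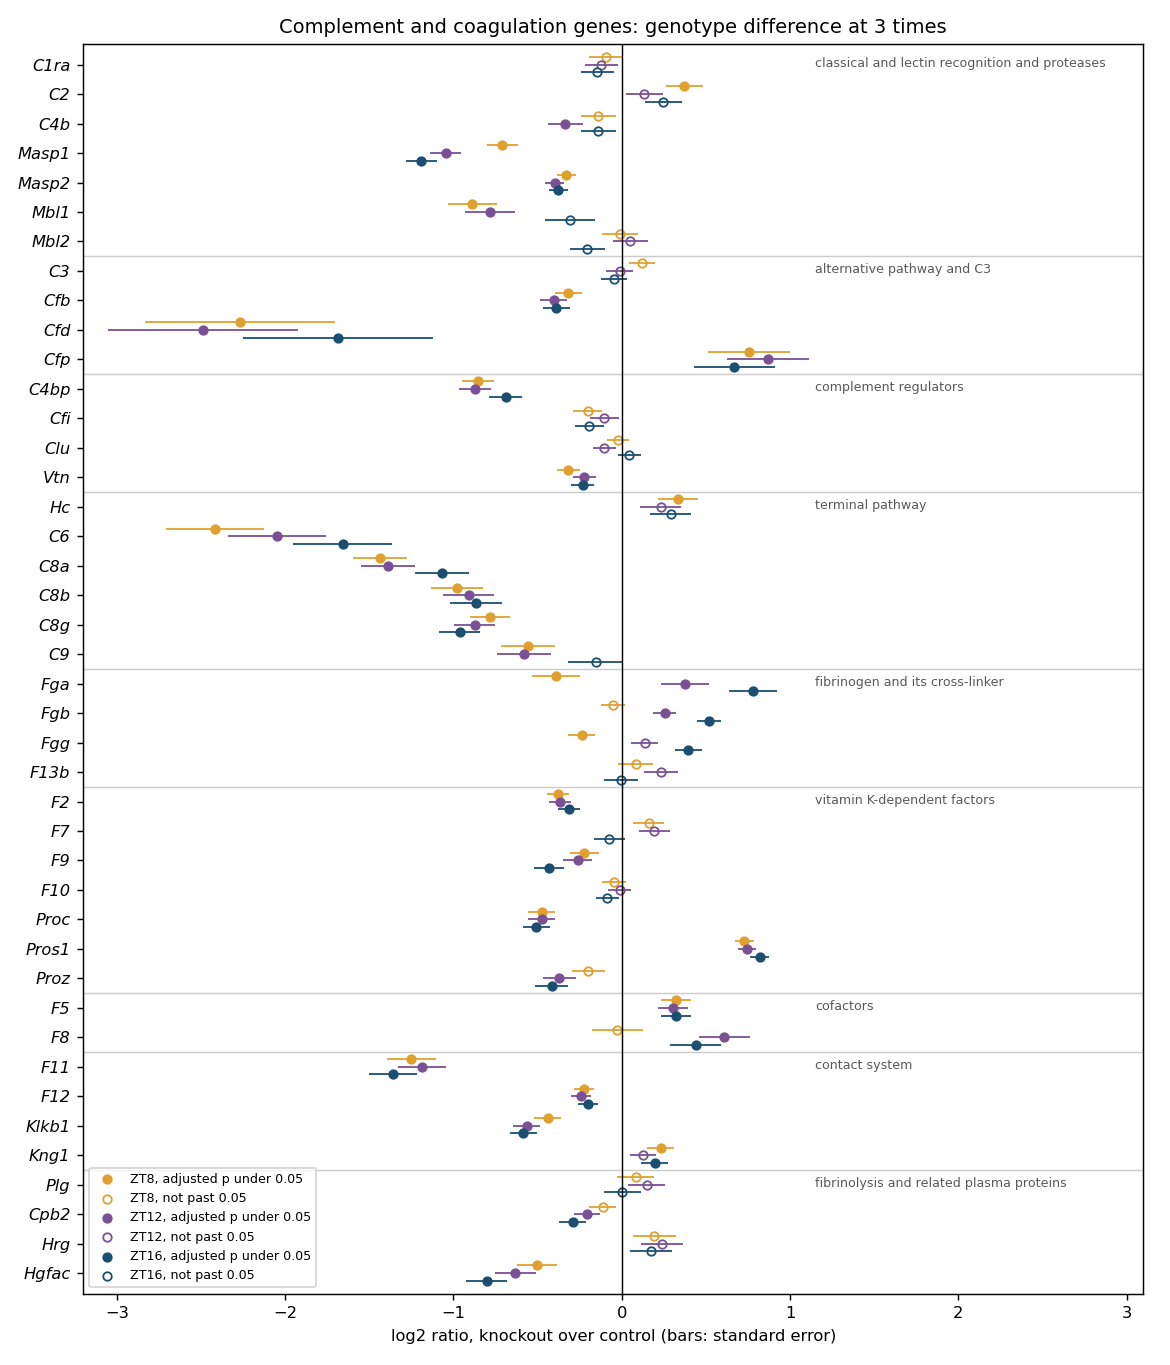
Log2 ratio of knockout over control for each of the 42 genes, grouped by role, at ZT8 (amber), ZT12 (purple) and ZT16 (navy), with standard errors as bars and filled points for a limma adjusted p under 0.05. Most filled points lie left of 0, with C6 and Cfd (dim in knockouts) farthest, and the 3 fibrinogen genes move from left to right with time.

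The terminal pathway, whose proteins build the membrane pore, held the gene with the largest fall at each time among those well above background on every array, C6. C6, the C8 chains C8a, C8b and C8g, and C9 were called lower at ZT8 and ZT12, and all but C9 again at ZT16. Hc, which encodes C5, the protein cleaved to start the pore, was alone among the 6 genes in never being called lower. C6 levels in controls (lowest, median and highest array) were 1.50, 2.59 and 3.18 at ZT8, 1.69, 3.01 and 3.17 at ZT12, and 1.69, 2.32 and 3.02 at ZT16. C6 levels in knockouts were -0.80, 0.22 and 0.41 at ZT8, 0.14, 0.76 and 1.57 at ZT12, and 0.37, 0.63 and 1.24 at ZT16. Every knockout array lay below every control array at each time, although the controls themselves spread over more than 1 log2 unit. The C6 log2 ratio was -2.41, -2.05 and -1.66 over the 3 times, with SE of 0.29 each and limma adjusted p of 1.2e-07, 1.4e-06 and 3.6e-05, or 5.33-fold, 4.14-fold and 3.16-fold lower. Its probe lies on chromosome 15, 4689842 to 4705241 in the positions of the files (mm9), a span longer than the probe because it crosses a gap in the genome alignment.

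C8 is a complex of 3 chains made from separate genes, and all 3 were called lower at every time. C8a, the alpha chain that enters the membrane, and C8b, the beta chain that docks on the growing complex, are neighbours on chromosome 4, with probes at 104488479 to 104488538 and 104477094 to 104477153 (mm9). The 250 bases before their start sites are shown because the genes lie side by side and fell together. They are from RefSeq on GRCm38.p6, at chr4:104876399-104876648 (minus strand) for C8a and chr4:104766067-104766316 (plus strand) for C8b, 5′ to 3′ in the direction of the gene, with the start site following the last base. Capitals mark matches to the motifs searched, which are an HNF1 motif (GTTAAT) in both and a STAT motif (TTCNNNGAA) in C8a.
C8a: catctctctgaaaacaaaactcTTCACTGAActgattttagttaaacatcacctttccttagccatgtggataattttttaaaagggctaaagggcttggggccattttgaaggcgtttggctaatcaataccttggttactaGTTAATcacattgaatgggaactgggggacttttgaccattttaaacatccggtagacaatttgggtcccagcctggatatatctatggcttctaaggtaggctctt
C8b: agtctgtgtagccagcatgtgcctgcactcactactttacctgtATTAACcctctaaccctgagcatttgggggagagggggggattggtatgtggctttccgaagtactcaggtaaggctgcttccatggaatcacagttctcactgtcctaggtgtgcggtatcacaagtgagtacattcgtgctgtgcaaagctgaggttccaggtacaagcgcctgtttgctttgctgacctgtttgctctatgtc

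C8a levels in controls (lowest, median and highest array) were 5.48, 5.89 and 6.04 at ZT8, 5.33, 6.12 and 6.44 at ZT12, and 5.21, 5.86 and 5.98 at ZT16. C8a levels in knockouts were 3.93, 4.48 and 4.60 at ZT8, 4.19, 4.64 and 4.97 at ZT12, and 4.31, 4.68 and 4.81 at ZT16. The knockout arrays lay below all controls at each time. The C8a log2 ratio was -1.43, -1.39 and -1.07 over the 3 times, with SE of 0.16 each and limma adjusted p of 2.8e-08, 3.7e-08 and 3.6e-06, and its other probe gave -1.45, -1.39 and -1.01. C8b log2 ratios were -0.98, -0.91 and -0.86 (limma adjusted p 8.0e-06, 1.7e-05 and 3.9e-05), with an overlap between the groups at ZT12 alone. C8g, the gamma chain, a lipocalin, had ratios of -0.78, -0.87 and -0.96 (limma adjusted p 7.3e-06, 9.6e-07 and 2.1e-07) and no overlap at any time. For C9, which polymerises into the pore, the ratios were -0.56, -0.58 and -0.15, called at ZT8 and ZT12 (limma adjusted p 0.0075 and 0.0046) and not at ZT16 (adjusted p 0.47). The genotype effect did not pass the F test across times for any of the 6 terminal pathway genes, with limma adjusted p from 0.39 for C9 to 0.95 for C8b.

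Hc levels in controls (lowest, median and highest array) were 5.25, 5.47 and 5.55 at ZT8, 5.26, 5.81 and 5.93 at ZT12, and 5.17, 5.55 and 5.82 at ZT16. Hc levels in knockouts were 5.37, 5.80 and 6.14 at ZT8, 5.81, 5.90 and 6.01 at ZT12, and 5.44, 5.85 and 6.01 at ZT16. The groups overlapped at all 3 times. The Hc ratio was 0.33, 0.23 and 0.29 over the 3 times, with SE of 0.12 each and limma adjusted p of 0.031, 0.13 and 0.056, so that ZT8 alone passed the test. The ZT8 call was lost without any 1 of 6 ZT8 arrays, control replicates 3, 5 and 6 or knockout replicates 1, 2 and 4 (adjusted p 0.0537 to 0.0825), and the ZT16 ratio was called without any 1 of 5 arrays (adjusted p 0.0261 to 0.0497).

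**Figure D2:**
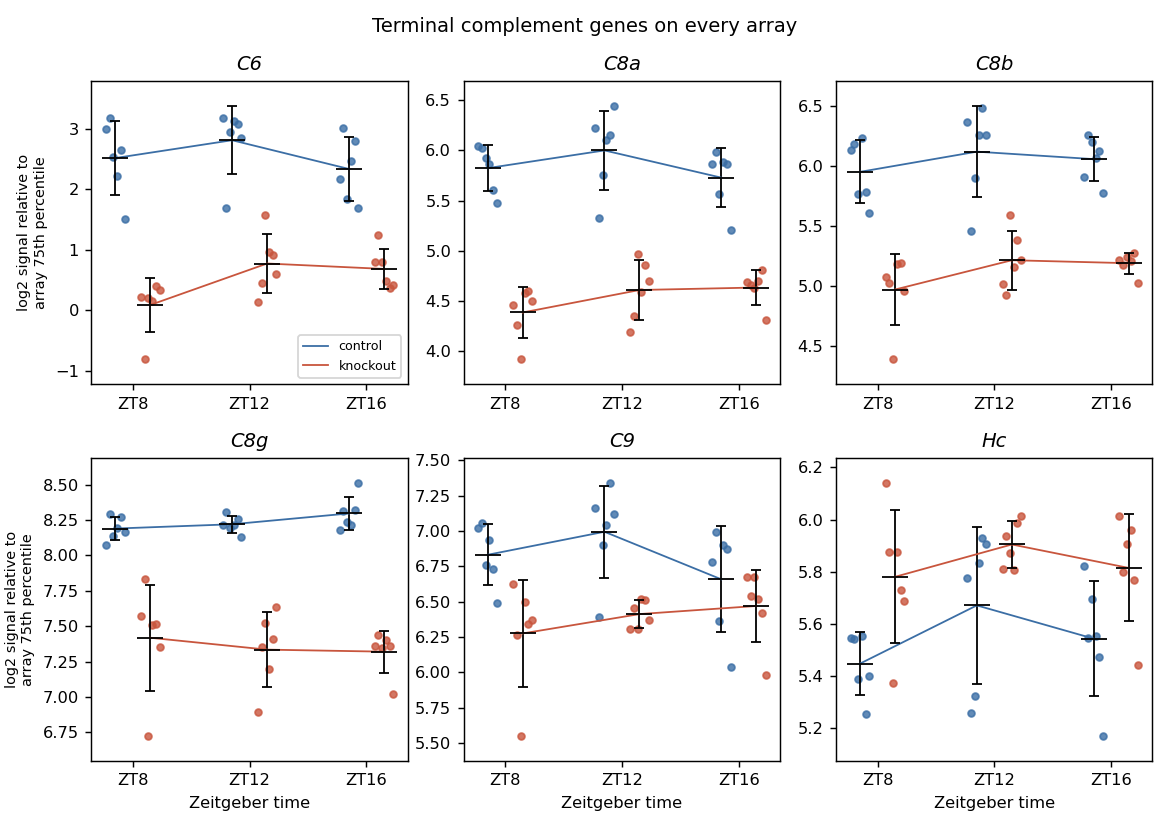
Log2 level of the 6 terminal pathway genes against Zeitgeber time, with 1 point per array, controls in blue, knockouts in red, black bars for the mean and SD of 6 arrays and lines joining the means. Knockouts lie below all controls for C6, C8a, C8b and C8g, apart from an overlap for C8b at ZT12, while the C9 and Hc groups overlap at each time.

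Of the 7 genes of the lectin and classical routes, 3, 4 and 2 were called lower and 1, 0 and 0 higher at ZT8, ZT12 and ZT16. Masp1 and Masp2, which encode serine proteases that ride on the lectins, were called lower at all 3 times. Mbl1, 1 of the mouse mannose-binding lectins, was called lower at ZT8 and ZT12, while Mbl2, the other, was not called at any time (ratios -0.01, 0.05 and -0.20). Masp1 levels in controls (lowest, median and highest array) were 4.35, 4.54 and 4.71 at ZT8, 4.44, 4.67 and 4.77 at ZT12, and 4.18, 4.44 and 4.60 at ZT16. Masp1 levels in knockouts were 3.49, 3.94 and 4.04 at ZT8, 3.34, 3.54 and 3.88 at ZT12, and 3.05, 3.20 and 3.24 at ZT16. No knockout array reached the controls at any time, and the knockout levels stepped down with time. The Masp1 log2 ratio was -0.71, -1.05 and -1.19 over the 3 times, with SE of 0.09 each and limma adjusted p of 3.9e-07, 2.3e-10 and 1.3e-11. Masp1 was 1 of 4 genes of the set past the F test for a genotype effect that differs between times (limma adjusted p 0.039, ratio at ZT16 minus that at ZT8 -0.48). That call was lost without any 1 of 15 of the 36 arrays, all of them ZT8 or ZT16 arrays (adjusted p 0.0507 to 0.0989), and was 0.0075 without ZT8 knockout replicate 3. Masp1 has 4 other probes, for other transcripts of the gene, and they did not move alike. At ZT8 they gave -0.69, 0.06, -0.13 and -0.54. At ZT12, in the same order, they gave -0.95, 0.32, -0.73 and -0.49, and at ZT16 -0.98, 0.18, -0.64 and -0.22. The probe with 0.32 at ZT12, A_52_P247185, was called higher there (limma adjusted p 0.029), opposite to the main probe. The ratio thus did not fall from ZT8 to ZT16 at every probe.

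Mbl1 levels in controls (lowest, median and highest array) were 3.75, 3.84 and 4.01 at ZT8, 3.52, 3.97 and 4.01 at ZT12, and 3.51, 3.73 and 4.15 at ZT16. Mbl1 levels in knockouts were 2.14, 3.19 and 3.35 at ZT8, 2.79, 3.04 and 3.46 at ZT12, and 3.06, 3.47 and 3.60 at ZT16. The groups were apart at ZT8 and ZT12 and overlapped at ZT16. The Mbl1 ratio was -0.89, -0.78 and -0.31 over the 3 times, with SE of 0.15 each and limma adjusted p of 1.9e-05, 8.0e-05 and 0.096, and the ZT16 ratio was called without ZT8 knockout replicate 3 (adjusted p 0.0315). Within knockouts the ZT16 minus ZT8 difference was 0.45 (limma adjusted p 0.02), and without ZT8 knockout replicate 3 it was 0.29 (adjusted p 0.083). Masp2 ratios were -0.33, -0.40 and -0.38 (limma adjusted p 3.9e-05, 1.8e-06 and 4.9e-06), with no overlap at any time, while 1 of its other probes, A_52_P569276, gave 0.07, -0.17 and -0.17 with no call.

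Of the classical proteases, C1ra was not called at any time (ratios -0.09, -0.12 and -0.14). The copies of C1s, the protease that C1r activates, fell: C1s1 ratios were -0.23, -0.35 and -0.45 (limma adjusted p 0.013, 0.00029 and 1.3e-05) and C1s2 ratios -0.33, -0.48 and -0.51 (adjusted p 0.00051, 2.8e-06 and 1.1e-06). These near-identical copies may share signal, as may C1ra with C1rb and C4b with C4a. Another C1s1 probe, A_66_P123571, well above background on 34 arrays, gave 0.30, -0.39 and -0.19 with no call. C4b, the gene of complement C4, was called lower at ZT12 alone (-0.33, limma adjusted p 0.0094). C2, which supplies the protease of the C3 convertase, rose at ZT8. C2 levels in controls (lowest, median and highest array) were 5.59, 5.77 and 6.09 at ZT8, 5.60, 6.09 and 6.49 at ZT12, and 5.62, 5.83 and 5.93 at ZT16. C2 levels in knockouts were 5.76, 6.22 and 6.35 at ZT8, 6.07, 6.20 and 6.37 at ZT12, and 5.89, 6.04 and 6.19 at ZT16. The groups overlapped at each time. The C2 ratio was 0.37, 0.13 and 0.25 over the 3 times, with SE of 0.11 each and limma adjusted p of 0.0081, 0.34 and 0.07, and the ZT16 ratio was called without control ZT12 replicate 2 or 5 (adjusted p 0.0356 to 0.0483).

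Of the 4 alternative route genes, Cfb was called lower and Cfp higher at all 3 times, C3 was not called, and Cfd is given by bounds at ZT8 and ZT12. C3 ratios were 0.12, -0.01 and -0.04 (limma adjusted p 0.24, 0.91 and 0.68). Its other probe, A_55_P2038525, gave 0.23, 0.16 and 0.09 and was called higher at ZT8 alone (limma adjusted p 0.019). That probe also rose from ZT8 to ZT16 in controls, by 0.21 (adjusted p 0.039). Under quantile normalization C3 was called higher at ZT12 and ZT16 (0.21 and 0.17), and without ZT8 knockout replicate 3 it was called higher at ZT8, so no direction is given for it. Cfb levels in controls (lowest, median and highest array) were 7.13, 7.26 and 7.46 at ZT8, 7.29, 7.53 and 7.70 at ZT12, and 7.44, 7.50 and 7.67 at ZT16. Cfb levels in knockouts were 6.74, 6.96 and 7.09 at ZT8, 6.96, 7.13 and 7.18 at ZT12, and 6.80, 7.15 and 7.35 at ZT16. The knockouts lay below the controls at each time. The Cfb ratio, for factor B, was -0.32, -0.40 and -0.39 over the 3 times, with SE of 0.08 each and limma adjusted p of 0.0028, 0.00018 and 0.00033.

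Cfd encodes factor D, or adipsin, which cleaves factor B and is made chiefly by fat. Cfd levels in controls (lowest, median and highest array) were -6.31, -4.49 and -3.24 at ZT8, -4.65, -3.81 and -2.01 at ZT12, and -5.41, -5.19 and -3.18 at ZT16. Cfd levels in knockouts were -7.52, -6.82 and -5.77 at ZT8, -7.51, -6.11 and -5.85 at ZT12, and -7.54, -7.11 and -3.29 at ZT16. The groups were apart at ZT12 and overlapped at ZT8 and ZT16. The probe was well above background on 5 of 6 controls at ZT8, 6 of 6 at ZT12 and 2 of 6 at ZT16, and on 0, 0 and 1 of 6 knockouts. Control signal was therefore at least 1.50-fold the knockout signal at ZT8 and at least 2.76-fold at ZT12, taking for each knockout array the higher of its own value and the lowest signal well above background. The fit's adjusted p (limma) was 0.0021 and 0.0007, from knockout values below the detection limit in a gene kept through its controls, so these p-values are no independent support. At ZT16 the bound was 0.976, below 1, and no fall is shown there. The fat marker list did not fall with it. Of its 5 genes none was called at ZT8, Fabp4 was called higher and Lep lower at ZT12, and Fabp4 higher at ZT16. The log2 of its summed signal in controls was 1.18 to 1.86 at ZT8, 1.13 to 1.62 at ZT12 and 1.49 to 1.90 at ZT16. In knockouts it was 1.40 to 2.02 at ZT8, 1.57 to 2.48 at ZT12 and 1.95 to 3.32 at ZT16. The defining marker Adipoq was well above background on 9 of the 36 arrays. The part of fat tissue in the Cfd result was not tested.

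Cfp encodes properdin, which stabilises the alternative convertase and is made chiefly by myeloid cells. Cfp levels in controls (lowest, median and highest array) were 2.43, 2.72 and 3.35 at ZT8, 2.31, 2.82 and 3.59 at ZT12, and 2.51, 2.90 and 3.80 at ZT16. Cfp levels in knockouts were 2.98, 3.48 and 4.34 at ZT8, 3.27, 3.70 and 4.32 at ZT12, and 3.36, 3.55 and 4.63 at ZT16. The groups overlapped at all 3 times. The Cfp ratio was 0.76, 0.87 and 0.67 over the 3 times, with SE of 0.24 each and limma adjusted p of 0.015, 0.0046 and 0.028, and its other probe gave 0.66, 0.91 and 0.68, called at ZT12 alone. The ZT8 call was lost without ZT8 knockout replicate 3 (0.62, adjusted p 0.052), and the ZT16 call without ZT16 knockout replicate 1 or 2 or control replicate 3 or 4 (adjusted p 0.0547 to 0.122). Markers of Kupffer cells and macrophages moved the same way. Of 8 such genes 2, 5 and 3 were called higher at ZT8, ZT12 and ZT16 and none lower. The log2 of their summed signal in controls was 5.54 to 6.83 at ZT8, 5.25 to 6.92 at ZT12 and 5.50 to 7.33 at ZT16. In knockouts it was 6.07 to 8.15 at ZT8, 6.43 to 7.94 at ZT12 and 6.60 to 8.34 at ZT16. Of 6 neutrophil markers 0, 0 and 2 were called higher at ZT8, ZT12 and ZT16 and 0, 1 and 0 lower. The log2 of their summed signal in controls was 1.16 to 2.11 at ZT8, 1.37 to 2.19 at ZT12 and 0.48 to 1.96 at ZT16. In knockouts it was 1.12 to 3.87 at ZT8, 1.14 to 2.64 at ZT12 and 1.54 to 2.63 at ZT16. The part of these cells in the Cfp result was not tested.

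Of the regulators, C4bp, the C4b-binding protein that helps factor I destroy C4b, and Vtn, vitronectin, which keeps the terminal complex out of membranes, were called lower at all 3 times. C4bp ratios were -0.85, -0.87 and -0.69 (limma adjusted p 4.2e-08, 2.1e-08 and 1.3e-06), with no overlap between the groups. Vtn ratios were -0.32, -0.22 and -0.23 (limma adjusted p 0.00052, 0.0092 and 0.0073). Cfi, factor I itself, and Clu, clusterin, were not called, with ratios of -0.20, -0.10 and -0.19 and of -0.02, -0.10 and 0.05.

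**Figure D3:**
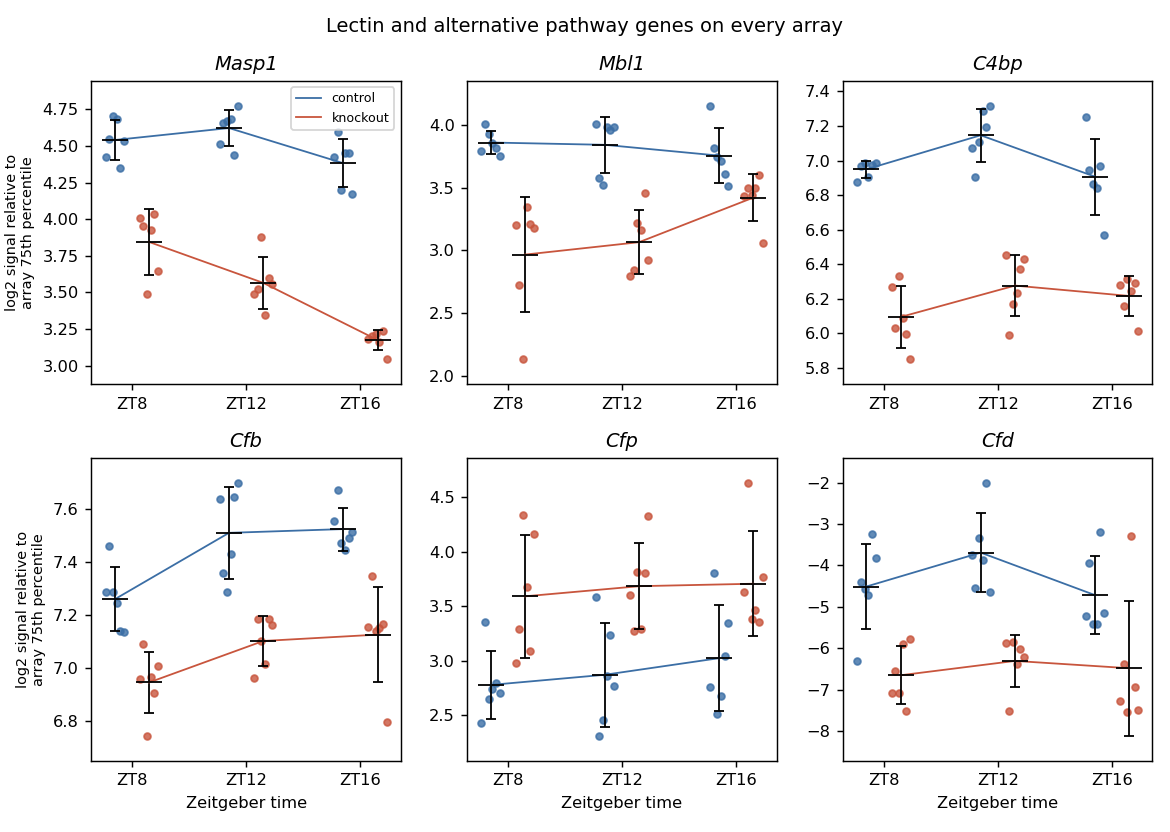
Log2 level of Masp1, Mbl1, C4bp, Cfb, Cfp and Cfd against Zeitgeber time, with 1 point per array, controls in blue, knockouts in red, black bars for the mean and SD of 6 arrays and lines joining the means. Masp1 and C4bp knockouts stay below all controls, Mbl1 knockouts meet the controls at ZT16, and Cfp knockouts lie higher with overlap.

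The fibrinogen genes had a genotype ratio that changed with time. Fga, Fgb and Fgg encode the 3 chains of the protein that thrombin turns into fibrin, and they lie together on chromosome 3, with probes at 82818825 to 82818884 (Fgg), 82835678 to 82835737 (Fga) and 82846334 to 82846393 (Fgb) on mm9. At the brightest probe of each, all 3 fell in controls and rose in knockouts from ZT8 to ZT16. The genotype ratio at these probes went from below or near 0 at ZT8 to above 0 at ZT16. Another Fga probe, given below, rose in both genotypes and had no genotype call. Fga, Fgb and Fgg were, with Masp1, the 4 genes of the set past the F test for a genotype effect that differs between times, where 8.46% of all genes passed it.

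The 250 bases before each start site are shown because the 3 genes are neighbours whose brightest probes moved together. They are from RefSeq on GRCm38.p6, at chr3:83025903-83026152 (plus strand) for Fga, chr3:83049864-83050113 (minus strand) for Fgb and chr3:83007474-83007723 (plus strand) for Fgg, 5′ to 3′ along the gene. Capitals mark matches to the HNF1 motif, to a C/EBP motif (TTGCNNAA) and to the STAT motif. Fga and Fgb each held 1 match to each of these 3, and no motif searched was found in the Fgg window.
Fga: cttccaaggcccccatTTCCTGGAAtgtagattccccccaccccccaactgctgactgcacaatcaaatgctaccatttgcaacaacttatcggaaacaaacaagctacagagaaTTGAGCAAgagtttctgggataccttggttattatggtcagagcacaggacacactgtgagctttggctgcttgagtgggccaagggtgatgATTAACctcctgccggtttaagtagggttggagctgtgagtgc
Fgb: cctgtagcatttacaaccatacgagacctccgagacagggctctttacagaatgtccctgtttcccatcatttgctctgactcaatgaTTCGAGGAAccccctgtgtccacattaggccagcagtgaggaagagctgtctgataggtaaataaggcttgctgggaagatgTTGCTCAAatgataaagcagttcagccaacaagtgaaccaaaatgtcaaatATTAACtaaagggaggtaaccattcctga
Fgg: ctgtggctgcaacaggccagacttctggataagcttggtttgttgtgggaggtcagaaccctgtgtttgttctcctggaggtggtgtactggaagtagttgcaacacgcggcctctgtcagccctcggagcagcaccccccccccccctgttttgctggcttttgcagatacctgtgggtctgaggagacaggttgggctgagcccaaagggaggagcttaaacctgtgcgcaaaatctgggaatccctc

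Fga levels in controls (lowest, median and highest array) were 5.80, 5.88 and 6.16 at ZT8, 5.20, 5.63 and 5.71 at ZT12, and 4.99, 5.58 and 5.90 at ZT16. Fga levels in knockouts were 5.10, 5.52 and 5.86 at ZT8, 5.77, 5.87 and 6.15 at ZT12, and 5.62, 6.29 and 6.80 at ZT16. At ZT8 the knockouts lay mostly below the controls with overlap, at ZT12 all 6 lay above them, and at ZT16 they lay mostly above. The Fga ratio was -0.39, 0.38 and 0.78 over the 3 times, with SE of 0.14 each and limma adjusted p of 0.034, 0.034 and 5.9e-05, and the ratio at ZT16 exceeded that at ZT8 by 1.17 (F test, limma adjusted p 0.00093). The calls at ZT8 and ZT12 depended on single arrays. The ZT8 call was lost without control replicate 2, 3, 5 or 6 or knockout replicate 3, 5 or 6 of that time (adjusted p 0.0502 to 0.102), and the ZT12 call without control replicate 2 or 3 or knockout replicate 1, 3 or 5 (adjusted p 0.0535 to 0.139). The gene also has another probe, A_55_P2123381, well above background on all arrays and placed at 82837260 to 82837319, that did not show this pattern. Its ratios were -0.19, 0.09 and -0.12 with no call, and it rose from ZT8 to ZT16 by 0.91 in controls and by 0.98 in knockouts.

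Fgb levels in controls (lowest, median and highest array) were 9.48, 9.69 and 9.78 at ZT8, 9.39, 9.41 and 9.55 at ZT12, and 9.23, 9.39 and 9.45 at ZT16. Fgb levels in knockouts were 9.32, 9.58 and 9.84 at ZT8, 9.48, 9.74 and 9.79 at ZT12, and 9.73, 9.92 and 9.99 at ZT16. The groups overlapped at ZT8 and ZT12 and were apart at ZT16, when every knockout lay above every control. The Fgb ratio was -0.05, 0.25 and 0.52 over the 3 times, with SE of 0.07 each and limma adjusted p of 0.61, 0.0044 and 8.0e-07, and the change of the ratio from ZT8 to ZT16 was 0.57 (F test, limma adjusted p 0.0013).

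Fgg levels in controls (lowest, median and highest array) were 9.28, 9.42 and 9.61 at ZT8, 9.05, 9.20 and 9.37 at ZT12, and 8.92, 9.15 and 9.24 at ZT16. Fgg levels in knockouts were 8.85, 9.25 and 9.34 at ZT8, 9.11, 9.38 and 9.47 at ZT12, and 9.28, 9.55 and 9.65 at ZT16. Again the groups overlapped at ZT8 and ZT12 and were apart at ZT16. The Fgg ratio was -0.24, 0.14 and 0.40 over the 3 times, with SE of 0.08 each and limma adjusted p of 0.022, 0.18 and 0.00025, and the change from ZT8 to ZT16 was 0.63 (F test, limma adjusted p 0.0017). The ZT8 call for Fgg was lost without control replicate 2 or knockout replicate 3 or 6 of that time (adjusted p 0.0569 to 0.0826).

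In controls the ZT16 minus ZT8 difference was -0.43 for Fga, -0.28 for Fgb and -0.30 for Fgg (limma adjusted p 0.025, 0.0032 and 0.0055). In knockouts it was 0.74, 0.29 and 0.33 (adjusted p 0.00016, 0.0021 and 0.002). Without ZT8 knockout replicate 3 the knockout differences were 0.71, 0.23 and 0.27, all still called, and the 3 genes still passed the F test (adjusted p 0.0015, 0.0015 and 0.0022). In each of the 3 wash batches the sign was negative in controls and positive in knockouts for all 3 genes. A batch held only 1 to 3 arrays of a group, however. In wash batch 1 the ZT16 controls were replicate 6 alone, an array low for Fgb (9.23) and Fgg (8.92) beside the other ZT16 controls. The Fga difference in controls was no longer called without control ZT8 replicate 2 or control ZT16 replicate 5 or 6 (adjusted p 0.053 to 0.0977). F13b, the carrier subunit of the factor that cross-links fibrin, had genotype ratios of 0.08, 0.24 and 0.00 with no call on all arrays. It was called higher at ZT12 without control ZT12 replicate 4, knockout ZT8 replicate 3 or knockout ZT16 replicate 2 (adjusted p 0.0142 to 0.0472), and lower at ZT16 than at ZT8 in knockouts without ZT8 knockout replicate 3 (-0.31, adjusted p 0.016).

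Red cell and endothelial markers also moved with time in knockouts. All 3 red cell markers rose from ZT8 to ZT16 in knockouts and passed the F test, and in controls 1 fell. The log2 of their summed signal in controls was 7.86 to 9.34 at ZT8, 7.37 to 8.49 at ZT12 and 7.83 to 8.51 at ZT16. In knockouts it was 7.58 to 8.66 at ZT8, 8.29 to 9.53 at ZT12 and 8.63 to 9.40 at ZT16. Of 8 endothelial markers 5 rose in knockouts and none was called in controls. Of 7 stellate cell and fibroblast markers none was called in knockouts and 1 fell in controls. The log2 of their summed signal in controls was 5.51 to 6.01 at ZT8, 5.21 to 6.03 at ZT12 and 5.58 to 6.38 at ZT16. In knockouts it was 5.35 to 6.71 at ZT8, 6.12 to 6.31 at ZT12 and 6.11 to 6.55 at ZT16. No marker of Kupffer cells and macrophages, neutrophils, lymphocytes or platelets was called with time in knockouts. Of 5 bile duct markers 1 rose in knockouts, as did 1 of 5 fat markers. Of 7 hepatocyte markers 1 rose in each genotype. The part of these cells in the fibrinogen result was not tested.

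**Figure D4:**
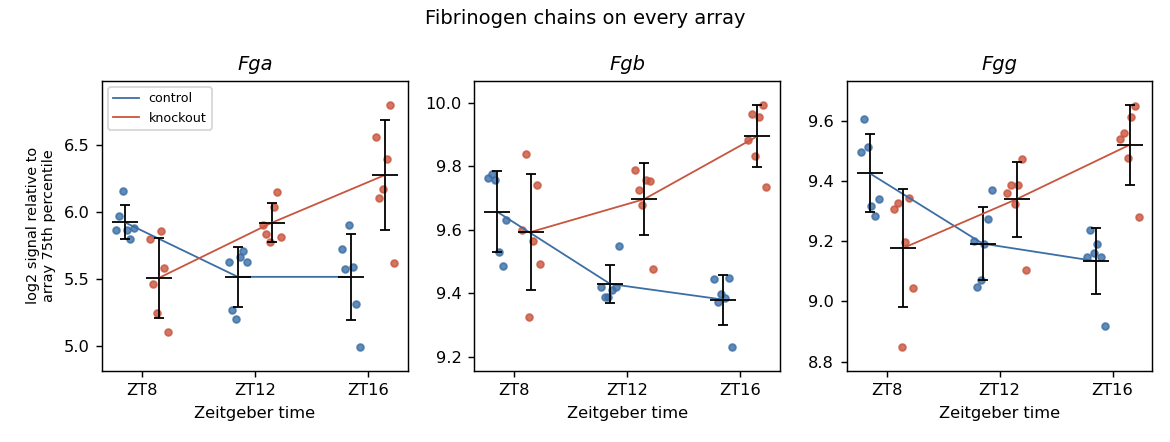
Log2 level of Fga, Fgb and Fgg against Zeitgeber time, with 1 point per array, controls in blue, knockouts in red, black bars for the mean and SD of 6 arrays and lines joining the means. Control means fall and knockout means rise from ZT8 to ZT16, and the lines cross between ZT8 and ZT12 in each panel.

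The vitamin K-dependent factors, which need carboxylated glutamates to bind membranes, split by gene, with 3, 4 and 4 of the 7 called lower and 1 at each time higher. Proc, the zymogen of the anticoagulant protein C, fell at all 3 times, and Pros1, its cofactor protein S, rose at all 3. Pros1 levels in controls (lowest, median and highest array) were 4.30, 4.46 and 4.52 at ZT8, 4.54, 4.78 and 4.84 at ZT12, and 4.41, 4.50 and 4.64 at ZT16. Pros1 levels in knockouts were 5.03, 5.15 and 5.26 at ZT8, 5.43, 5.47 and 5.54 at ZT12, and 5.25, 5.33 and 5.41 at ZT16. Every knockout lay above every control at each time. The Pros1 ratio was 0.73, 0.74 and 0.82 over the 3 times, with SE of 0.06 each and limma adjusted p of 1.7e-11, 7.3e-12 and 8.6e-13, or 1.66-fold, 1.67-fold and 1.76-fold higher, and its probe A_52_P909274 gave 0.86, 0.96 and 1.03. Another Pros1 probe, A_55_P2716391, well above background on 8 arrays, gave -0.01, 0.35 and 0.34 with no call. Proc ratios were -0.48, -0.48 and -0.51 (limma adjusted p 2.1e-05, 1.6e-05 and 6.8e-06), and its knockout arrays lay below all controls at each time, so the genes of enzyme and cofactor moved in opposite directions.

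F2, prothrombin, was called lower throughout, with ratios of -0.38, -0.37 and -0.31 (limma adjusted p 3.1e-05, 3.7e-05 and 0.00032) and no overlap. F9, factor IX, had ratios of -0.22, -0.26 and -0.43 (adjusted p 0.049, 0.017 and 0.00022), and its ZT8 call was lost without any 1 of 27 of the 36 arrays (adjusted p 0.0505 to 0.199). F9 levels in controls (lowest, median and highest array) were 4.08, 4.12 and 4.26 at ZT8, 4.23, 4.35 and 4.44 at ZT12, and 4.33, 4.43 and 4.54 at ZT16. F9 levels in knockouts were 3.46, 3.98 and 4.17 at ZT8, 3.96, 4.06 and 4.31 at ZT12, and 3.68, 4.01 and 4.17 at ZT16. The knockouts lay below all controls at ZT16 and overlapped them before. F9 rose from ZT8 to ZT16 in controls, by 0.27 (limma adjusted p 0.021, and 0.073 without control ZT16 replicate 6), against 0.06 in knockouts (adjusted p 0.68). The genotype effect on F9 did not pass the F test (limma adjusted p 0.51). Proz, the cofactor of an inhibitor of factor X, was called lower at ZT12 and ZT16 (ratios -0.20, -0.37 and -0.42), and at ZT8 also without ZT8 knockout replicate 2 (adjusted p 0.0486). F7 and F10 were not called, with ratios of 0.16, 0.19 and -0.07 and of -0.05, -0.01 and -0.09.

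Of the 4 contact route genes the 3 proteases were called lower at all 3 times. F11, factor XI, and Klkb1, plasma prekallikrein, are neighbours on chromosome 8, with probes at 46326753 to 46326812 and 46355052 to 46355111 (mm9). Both were lower in knockouts at every time, and both fell from ZT8 to ZT16 in both genotypes. Their upstream windows are shown because they were the only matched genes of the set with the FOXO motif (GTAAACA). They are from RefSeq on GRCm38.p6, at chr8:45262032-45262281 (minus strand) for F11 and chr8:45294836-45295085 (minus strand) for Klkb1, 5′ to 3′ along the gene, with capitals for that motif and the C/EBP motif.
F11: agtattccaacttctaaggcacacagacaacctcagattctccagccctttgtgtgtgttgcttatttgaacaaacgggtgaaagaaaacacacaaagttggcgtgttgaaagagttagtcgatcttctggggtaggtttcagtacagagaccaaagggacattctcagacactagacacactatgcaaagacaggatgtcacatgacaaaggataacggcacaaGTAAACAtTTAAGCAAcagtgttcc
Klkb1: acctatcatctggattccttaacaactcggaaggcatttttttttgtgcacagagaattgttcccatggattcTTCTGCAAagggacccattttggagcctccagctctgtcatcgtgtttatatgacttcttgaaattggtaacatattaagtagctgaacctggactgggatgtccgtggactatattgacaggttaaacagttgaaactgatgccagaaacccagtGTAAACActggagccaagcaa

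F11 levels in controls (lowest, median and highest array) were 3.92, 4.10 and 4.38 at ZT8, 3.45, 3.86 and 4.16 at ZT12, and 3.40, 3.66 and 3.91 at ZT16. F11 levels in knockouts were 2.61, 2.82 and 3.26 at ZT8, 2.24, 2.65 and 2.95 at ZT12, and 2.06, 2.22 and 2.63 at ZT16. No knockout array reached a control at any time. The F11 ratio was -1.25, -1.19 and -1.36 over the 3 times, with SE of 0.14 each and limma adjusted p of 5.2e-08, 9.5e-08 and 8.5e-09, or 2.38-fold, 2.27-fold and 2.56-fold lower. From ZT8 to ZT16 F11 changed by -0.46 in controls (limma adjusted p 0.016) and by -0.57 in knockouts (adjusted p 0.0027).

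Klkb1 levels in controls (lowest, median and highest array) were 5.49, 5.54 and 5.65 at ZT8, 5.07, 5.36 and 5.41 at ZT12, and 5.01, 5.13 and 5.24 at ZT16. Klkb1 levels in knockouts were 5.01, 5.07 and 5.24 at ZT8, 4.57, 4.72 and 4.95 at ZT12, and 4.20, 4.65 and 4.73 at ZT16. Here too the groups were apart at each time. The Klkb1 ratio was -0.44, -0.56 and -0.58 over the 3 times, with SE of 0.08 each and limma adjusted p of 6.7e-05, 1.4e-06 and 8.4e-07. Its ZT16 minus ZT8 difference was -0.41 in controls (limma adjusted p 0.00024) and -0.55 in knockouts (adjusted p 3.3e-06), and the ZT16 arrays lay below the ZT8 arrays in both genotypes. The genotype effect did not pass the F test for F11 (limma adjusted p 0.88) or Klkb1 (adjusted p 0.7). F12, factor XII, which starts the route, was lower by small steps, with ratios of -0.22, -0.24 and -0.20 (adjusted p 0.0036, 0.0016 and 0.008) and no overlap. Kng1, the kininogen that carries prekallikrein and factor XI, was called higher at ZT8 and ZT16, with ratios of 0.23, 0.13 and 0.20 (limma adjusted p 0.022, 0.2 and 0.047). The ZT16 call was lost without any 1 of 16 of the 36 arrays (adjusted p 0.0502 to 0.128) and the ZT8 call without ZT8 knockout replicate 2 or 5 or control replicate 4 (adjusted p 0.0537 to 0.0771). Another of its probes, A_51_P451377, gave 0.50, 0.56 and 0.55, and A_55_P2003410 gave -0.08, 0.13 and 0.00.

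Of the cofactor genes, F5 was called higher at all 3 times and F8 at ZT12 and ZT16. F5, whose protein speeds thrombin formation, had ratios of 0.32, 0.31 and 0.32 (limma adjusted p 0.0046, 0.0059 and 0.004), with groups apart at ZT12 and ZT16. F8, factor VIII, is made mainly by endothelium. F8 levels in controls (lowest, median and highest array) were -2.07, -1.65 and -1.51 at ZT8, -1.96, -1.79 and -1.54 at ZT12, and -1.92, -1.63 and -1.25 at ZT16. F8 levels in knockouts were -2.03, -1.80 and -1.16 at ZT8, -1.51, -1.26 and -0.49 at ZT12, and -1.35, -1.17 and -0.87 at ZT16. The knockouts lay above all controls at ZT12 and overlapped them at ZT8 and ZT16. The F8 ratio was -0.03, 0.61 and 0.44 over the 3 times, with SE of 0.15 each and limma adjusted p of 0.91, 0.0016 and 0.021. The ZT16 ratio was -0.05 in wash batch 1, which held 1 control array of that time, and positive in the other batches. Its call was lost without knockout ZT16 replicate 5 or control ZT16 replicate 2 (adjusted p 0.0572 to 0.0627). From ZT8 to ZT16 F8 rose by 0.59 in knockouts (limma adjusted p 0.0031) and differed by 0.12 in controls (adjusted p 0.61). Endothelial markers moved with it: of 8, none was called at ZT8, while 7 were called higher at ZT12 and 6 at ZT16, and 5 rose from ZT8 to ZT16 in knockouts. The log2 of their summed signal in controls was 4.86 to 5.17 at ZT8, 4.70 to 5.03 at ZT12 and 4.79 to 5.37 at ZT16. In knockouts it was 4.79 to 5.28 at ZT8, 5.07 to 5.59 at ZT12 and 5.21 to 5.55 at ZT16. The part of endothelial cells in the F8 result was not tested.

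**Figure D5:**
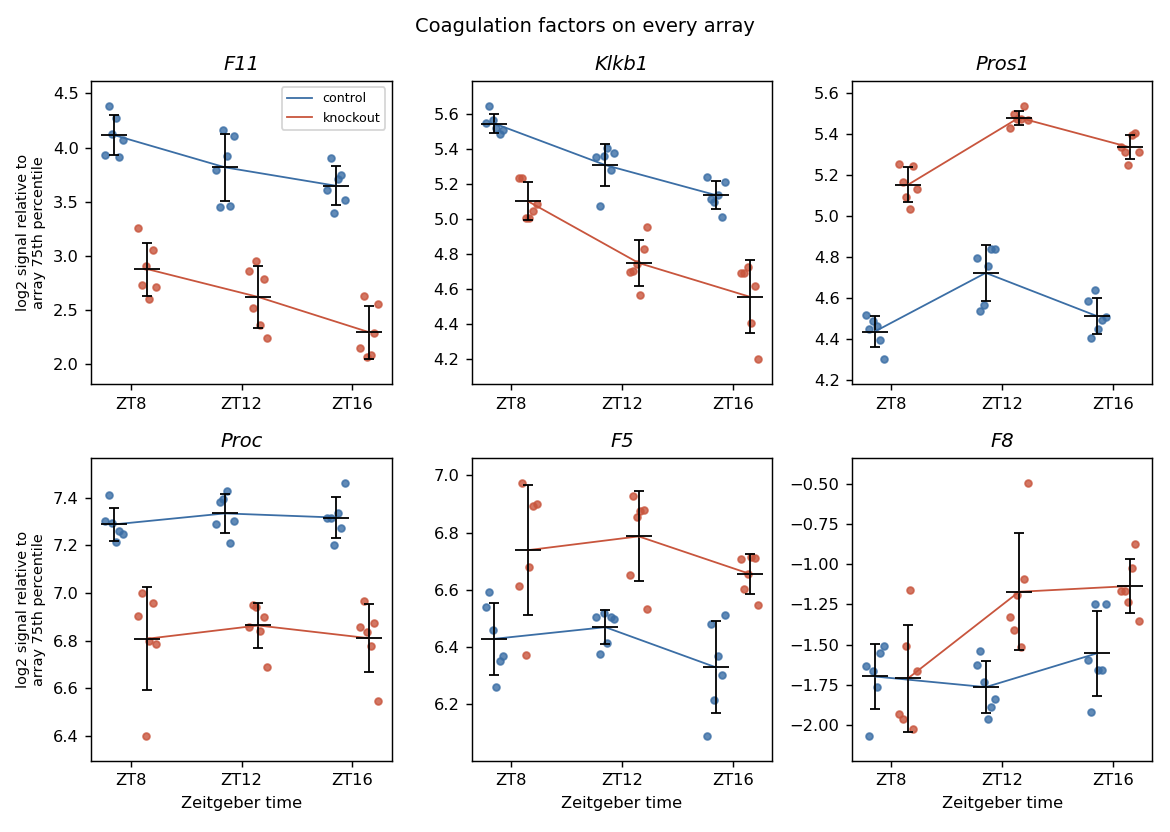
Log2 level of F11, Klkb1, Pros1, Proc, F5 and F8 against Zeitgeber time, with 1 point per array, controls in blue, knockouts in red, black bars for the mean and SD of 6 arrays and lines joining the means. F11, Klkb1 and Proc knockouts lie below all controls, Pros1 knockouts above them, and F8 separates at ZT12.

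Among the genes of clot dissolution and related plasma proteins, Hgfac fell at all 3 times and Cpb2 at ZT12 and ZT16, and Plg and Hrg were not called. Hgfac encodes the protease that activates hepatocyte growth factor, and its ratios were -0.50, -0.63 and -0.80 (limma adjusted p 0.0015, 0.0001 and 4.0e-06), with no overlap at ZT16. Cpb2 encodes a carboxypeptidase that protects fibrin from plasmin. Cpb2 levels in controls (lowest, median and highest array) were 6.73, 6.79 and 6.81 at ZT8, 6.83, 7.06 and 7.19 at ZT12, and 6.93, 7.04 and 7.09 at ZT16. Cpb2 levels in knockouts were 6.51, 6.60 and 6.89 at ZT8, 6.57, 6.86 and 6.92 at ZT12, and 6.54, 6.78 and 6.84 at ZT16. Knockouts and controls were apart at ZT16 alone. The Cpb2 ratio was -0.11, -0.21 and -0.29 over the 3 times, with SE of 0.08 each and limma adjusted p of 0.27, 0.033 and 0.0035, and the ZT12 call was lost without control replicate 1, 4, 5 or 6 or knockout replicate 2 or 4 of that time (adjusted p 0.051 to 0.103). Plg, plasminogen, had ratios of 0.08, 0.15 and 0.00 and Hrg, histidine-rich glycoprotein, of 0.19, 0.24 and 0.17. Another Plg probe, A_55_P2730566, gave genotype ratios of -0.14, 0.59 and 0.48 with no call. From ZT8 to ZT16 that probe rose by 1.12 in controls and by 1.73 in knockouts (limma adjusted p 0.018 and 0.00032), where the main probe had no call.

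Between ZT8 and ZT16, 8 of the 42 genes had a call in controls and 9 in knockouts. These comparisons share their ZT8 and ZT16 arrays with those of genotype. In controls 3 (7.14%) rose, F9, Cfb and Cpb2, beside 13.4% of all genes. Another 5 (11.9%) fell, F11, Fga, Klkb1, Fgb and Fgg, beside 13.2%. In knockouts 6 (14.3%) rose, Fga, F8, Mbl1, Fgb, Fgg and Pros1, beside 15.5% of all genes. Masp1, F11 and Klkb1, 3 genes (7.14%), fell, beside 13.4%. Whether the shares of the set differ from those of all genes was not tested. Without ZT8 knockout replicate 3 the knockout calls became 5 higher and 7 lower, with Mbl1 lost. That made 12 of the 42, beside 7506 of all 22916 genes. C1ra (-0.24), Mbl2 (-0.28), F13b (-0.31) and F7 (-0.24) were then called lower (adjusted p 0.024, 0.046, 0.016 and 0.03). In controls the C3 rise was called without ZT8 knockout replicate 3 (0.18, limma adjusted p 0.04). The Proz rise was called without that array, knockout ZT16 replicate 6 or control ZT16 replicate 3 (0.25 to 0.28, adjusted p 0.0133 to 0.0464). Quantile normalization gave 1 higher and 5 lower in controls. The control rises of Cfb and Cpb2 were 0.25 (limma adjusted p 0.019) and 0.24 (adjusted p 0.02), and the Cfb call was lost without control ZT8 replicate 6 (adjusted p 0.0632). The Pros1 rise in knockouts was 0.17 and was lost without ZT8 or ZT16 knockout replicate 4 (adjusted p 0.0515 to 0.061). The Pros1 probe A_55_P2716391, well above background on 8 arrays, changed by -1.98 in controls and -1.64 in knockouts (limma adjusted p 1.8e-05 and 0.0002). Its probe A_52_P909274 changed by 0.07 and 0.24 with no call. Masp1 fell by 0.66 on the log2 scale in knockouts (limma adjusted p 1.8e-06) and differed by -0.18 in controls (adjusted p 0.17).

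The neighbouring genes of these pathways were read from lists of genes outside the set, whose counts stand beside 16.7%, 19.6% and 20.0% of all genes called higher at ZT8, ZT12 and ZT16 and 18.7%, 22.7% and 20.1% called lower. At ZT8 the shares of the complement and coagulation lists were near these. Of 24 other complement genes measured, 4 were called higher and 5 lower at ZT8, 6 and 8 at ZT12, and 5 and 9 at ZT16. Falls called at all 3 times included those of Cd59b, an inhibitor of the terminal pore (-1.40, -1.40 and -1.35), and Itgam, a chain of complement receptor 3 (-1.05, -1.24 and -0.53). The largest rises were those of C5ar1 and C5ar2, receptors for the C5a fragment, and Itgax, a chain of complement receptor 4. C5ar2 ratios were 1.11, 0.75 and 0.62 and Itgax ratios 1.08, 1.18 and 1.31, all called. C5ar1, well above background on 16 arrays, was called higher at ZT8 alone (limma adjusted p 0.0038). C7, the pore component outside the set, chosen after its values were seen, was called lower at ZT16 alone (-0.42, limma adjusted p 0.0025).

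Of 21 other coagulation and fibrinolysis genes, 4, 10 and 9 were called higher and 3 at each time lower. Fgl1, a fibrinogen-like secreted protein of hepatocytes, rose, with ratios of 1.56, 1.16 and 1.28 (limma adjusted p 7.7e-07, 5.1e-05 and 1.4e-05). F13a1, the catalytic subunit of the factor that F13b carries, was called higher at ZT16 alone (limma adjusted p 0.014) and Fgl2 at ZT12 alone (adjusted p 0.015), and they were well above background on 27 and 22 arrays. Serpina5, the protein C inhibitor, was called lower at ZT12 and ZT16 (limma adjusted p 0.00037 and 3.7e-07) but was well above background on 11 arrays only. Serpind1, heparin cofactor II, was called lower throughout, with ratios of -0.21, -0.36 and -0.41, and Mug1, a protease-trapping relative of alpha-2-macroglobulin with similar copies, was called at ZT8 alone (-0.58). In the vitamin K cycle, which carboxylates prothrombin and its relatives, 2 of 5 genes were lower at each time. Ggcx, the carboxylase, had ratios of -0.24, -0.53 and -0.33 and Vkorc1l1, a vitamin K epoxide reductase, of -0.61, -0.67 and -0.64, all called.

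Of 22 regulators and acute phase genes, 4, 5 and 3 were called higher and 6, 9 and 11 lower at ZT8, ZT12 and ZT16. Socs3, a feedback inhibitor of cytokine signalling, was called higher at all 3 times (1.58 at ZT8 and 1.41 at ZT16). Il6ra, the interleukin-6 receptor chain, was called higher at ZT8 and ZT12 and not at ZT16 (0.82, 0.38 and -0.29), and it passed the F test (limma adjusted p 0.0015). Foxa1, a liver transcription factor, was called higher at ZT8 alone (0.84). Saa1 and Saa2, near-identical serum amyloid genes, were called lower at ZT12 and ZT16, with ratios of -0.61, -2.45 and -1.88 and of -0.67, -2.55 and -1.99. Nr1h4, the bile acid receptor, was lower at all 3 times (-0.53, -1.21 and -1.42, limma adjusted p 0.0024, 1.7e-08 and 7.9e-10).

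The table of RefSeq upstream windows (GRCm38.p6) held 33 of the 43 named genes, and both strands of the 250 bases before the start were searched for 5 short motifs. The HNF1 motif GTTAAT was found in 12 of the 33, including C8a, C8b, Fga and Fgb, and in 7.49% of all 27025 genes of the table. The C/EBP motif TTGCNNAA was found in 8 of 33 and in 10.8% of all, and the STAT motif TTCNNNGAA in 7 of 33 and in 8.13%. GTAAACA, the FOXO motif, was found in F11 and Klkb1, 2 of 33, and in 3.54% of all. The HNF4 motif CAAAGTCC was found in none of the 33 and in 1.38% of all. No 2 matches overlapped in the windows printed. A match says only that the letters are there.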

How the data were processed

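Total liver RNA (200 ng per sample) was labelled with Cy3 and hybridised to 36 one-colour arrays. Per the file headers the deposited intensity values are Feature Extraction 10.10.1.1 processed signals, background subtracted and detrended within each array, and the deposited well-above-background flags come from the same software. The authors' deposited log2 table, whose sorted columns are identical in every sample, served as an alternative, and its steps are not given in the sources used here beyond the name limma in the submitters' processing notes. Here log2(intensity) minus each array's 75th percentile was fitted with limma 3.58.1 in R 4.3.3 (lmFit, eBayes) on 6 groups with wash batch as covariate, over the brightest probe of each of 22916 genes, and Benjamini-Hochberg adjusted p values under 0.05 were called. Probes had to be well above background on at least 6 arrays (34771 of 56605). Replicates are those numbered in the labels. Probe positions are on mm9 and promoter windows on GRCm38.p6, no coordinate was converted, and exons on mm9 were not used here.

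The genes of the set, the lists of neighbouring genes and the markers were chosen with earlier results of these data known. Every gene of the set is accounted for. Levels on the arrays are given for 18 of its genes: the 4 largest called rises and falls of each genotype comparison, the 4 smallest p in the F test, the 3 largest called rises and falls with time in each genotype, genes called in opposite directions at different times, and genes dim on some arrays. Outside the set, up to 3 called genes per list and direction with the largest log2 ratio are named, besides Insr, C1s1, C1s2, C7 and the markers, and 1 gene that the rule would name is not reported here. The fit was tested on simulated data. Alternatives were normexp background correction, quantile normalization, the authors' table, array weights, other probe filters and the mean of probes, no wash batch, slide as a block, the replicate block, fitting only the groups compared, and leaving out each array.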

Additional observations from a re-analysis of the deposited data

Results flagged for a closer look

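Among 108 sets of 6 arrays (18 genes in the 6 groups), 12 held 1 array far from the other five, with a gap to its nearest neighbour that passed Dixon's critical value, and chance flags about 1 in 20 sets. All values are log2 levels. In ZT12 controls C6 was 1.69 in replicate 2 against 2.85 to 3.17 in the others, and in ZT8 knockouts -0.80 in replicate 2 against 0.16 to 0.41. C8a was 4.31 in ZT16 knockout replicate 6 against 4.63 to 4.81, and Mbl1 was 3.06 in the same array against 3.43 to 3.60. C2 was 5.76 in ZT8 knockout replicate 3, the array that stood apart on the second principal component, against 6.16 to 6.35. Cfp was 4.63 in ZT16 knockout replicate 2 against 3.36 to 3.77. Cfd, not well above background on most knockout arrays, was -7.51 in ZT12 knockout replicate 2 against -6.39 to -5.85 and -3.29 in ZT16 knockout replicate 4 against -7.54 to -6.38. Fgb was 9.55 in ZT12 control replicate 6 against 9.39 to 9.42, 9.23 in ZT16 control replicate 6 against 9.37 to 9.45, and 9.48 in ZT12 knockout replicate 6 against 9.68 to 9.79. Fgg was 8.92 in ZT16 control replicate 6 against 9.15 to 9.24.

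For 4 genes the genotype effect differed between times by the limma F test. The ratio at ZT16 minus that at ZT8 was 1.17 for Fga, 0.57 for Fgb, 0.63 for Fgg and -0.48 for Masp1, with adjusted p of 0.00093, 0.0013, 0.0017 and 0.039. These values are from the brightest probe of each gene, and other probes of Fga and Masp1 did not all move that way. What sets the fibrinogen genes and Masp1 apart was not tested.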

How the results depend on the processing

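Besides leaving out each of the 36 arrays, 12 alternatives were tried. The count of called genes of the set was 27 at ZT8 (24 to 27 without 1 array, 19 to 30 under the other alternatives), 28 at ZT12 (27 to 29 and 26 to 33), 27 at ZT16 (25 to 29 and 26 to 32), 8 for ZT16 minus ZT8 in controls (6 to 10 and 6 to 10), 9 in knockouts (8 to 12 and 7 to 12) and 4 for the F test (3 to 4 and 3 to 5). Fitting only the groups compared gives no F test. With the replicate block these counts were 26, 28, 27, 8, 9 and 3, the lost calls being F9 at ZT8 and Masp1 in the F test, and same-numbered arrays did not deviate together, so the numbers are not taken as pairs. C3 turned from just below 0 to above it under quantile normalization (0.21 at ZT12 and 0.17 at ZT16) and in the authors' table (0.24 and 0.15). Averaging all probes of a gene reversed the Fga difference between ZT16 and ZT8 in controls (0.24) and that of Pros1 in controls (-0.61) and knockouts (-0.41), where another probe of the gene differs. The cause of the C3 change was not tested. Cfd is limited by signal over background, and the number of arrays limits the precision of all genes.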
